A study of Mus musculus with 9 samples.

Results

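Immune checkpoint receptors are proteins on T cells that damp the response to an antigen, and their ligands stand on antigen-presenting cells and on many tumours. Their transcripts are described here in B16F10, a mouse melanoma line, and in splenic CD8+ T cells, without and with hypochlorous acid (HOCl), the oxidant that neutrophil myeloperoxidase makes. The members were 10 of the 54838 genes in the count files, chosen by name: the 6 receptor genes Pdcd1, Ctla4, Lag3, Havcr2, Tigit and Btla and the 4 ligand genes Cd274, Pvr, Lgals9 and Nectin2. Each matched 1 Ensembl gene ID in every library. The 9 libraries fell into 4 groups, all on the C57BL/6 background. B16F10 cells, grown for days on culture plates, gave 3 untreated libraries and 3 from cells held for 5 h in medium with 600 µM HOCl. CD8+ T cells, taken with a CD8a+ isolation kit from spleens of adult mice, gave 2 untreated libraries and 1 with the same HOCl exposure. The labels name no genotype, antigen stimulus or mouse for the T cells, and nothing says that replicates came from separate cultures or mice. A p-value here thus speaks of differences among these libraries, and that spread may be technical.

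The receptors act in pairs with the ligands. PD-1 (Pdcd1) binds PD-L1 (Cd274) and brings the phosphatase SHP-2 to the activated antigen receptor. CTLA-4 (Ctla4) takes the ligands CD80 and CD86 away from the costimulator CD28. TIGIT (Tigit) binds the poliovirus receptor CD155 (Pvr) and more weakly CD112 (Nectin2), and so competes with the activating receptor CD226. TIM-3 (Havcr2) binds galectin-9 (Lgals9), LAG-3 (Lag3) binds MHC class II and FGL1, and BTLA (Btla) binds HVEM. In tumours Cd274 is a well-known target of interferon gamma through JAK1, JAK2 and IRF1, and Lgals9 is also induced by interferon. On resting naive CD8+ T cells most of these receptors are scarce, and they appear after activation.

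The promoter of Lgals9 is shown because Lgals9 had the largest change among the ligands, and that of Cd274 because it is the ligand most often tied to the interferon route. Sequences are from RefSeq on GRCm38.p6, whose table matched 8 of the 10 members, all but Pvr and Lag3. They run 5′ to 3′ along the gene, and capitals mark matches to the interferon response element (GAAA, any 2 bases, GAAA), read on the opposite strand in both places. The Lgals9 stretch is chr11:78984900-78985099, minus strand, 200 bases that end 25 bases after the start. The Cd274 stretch is chr19:29367188-29367437, plus strand, the 250 bases before the start, and holds no match.
Lgals9: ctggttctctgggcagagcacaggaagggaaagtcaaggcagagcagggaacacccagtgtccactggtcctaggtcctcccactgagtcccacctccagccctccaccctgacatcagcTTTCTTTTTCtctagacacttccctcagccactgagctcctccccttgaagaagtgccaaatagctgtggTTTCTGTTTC
Cd274: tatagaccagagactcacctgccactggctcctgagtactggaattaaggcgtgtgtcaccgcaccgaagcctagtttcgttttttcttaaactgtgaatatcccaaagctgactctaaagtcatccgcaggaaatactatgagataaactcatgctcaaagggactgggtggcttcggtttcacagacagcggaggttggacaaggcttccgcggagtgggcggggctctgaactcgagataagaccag

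The Lgals9 matches lay 55 to 46 bases before the start (TTTCTTTTTC) and at bases 16 to 25 after it (TTTCTGTTTC). In the full windows of 250 bases before to 50 after the start, this element on either strand was present in 3.44% of 32851 RefSeq promoters, and of the 8 member promoters it was found in that of Lgals9. Further motifs were searched on both strands: TTCNNNGAA (GAS, a STAT site; 8.30% of promoters), TGACNNNGC (the antioxidant response core; 12.4%), TGANTCA (AP-1; 7.81%) and TGATGNAA (CHOP-ATF; 3.97%). The antioxidant core was matched once in each of the Tigit, Btla and Nectin2 promoters and AP-1 once in that of Havcr2. Pdcd1, Ctla4 and Cd274 had no match to any of the 5. No match overlapped another. The motifs were chosen with the expression results known, and a match describes letters and is no evidence of binding.

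The B16F10 libraries held 45.9 to 61.3 M counts, the untreated T cell libraries 49.9 and 52.1 M and the T cell HOCl library 12.8 M. The cell labels were checked against markers. All 12 melanocyte markers were at 1 count per M library counts (CPM) or more in every B16F10 library, with a summed level of 33176 to 34898 CPM, and in the untreated T cell libraries they summed to 131 and 33.0 CPM. The 15 CD8 T cell markers summed to 6563 and 7174 CPM in untreated T cells, and Cd4 was at 0.04 and 0.19 CPM. They summed to 3.71 to 5.04 CPM in 5 of the B16F10 libraries but to 52.6 CPM in HOCl replicate 3, where all 15 were above 1 CPM. The T cell HOCl library stood apart. It had counts in 44225 genes against 22855 to 25907 elsewhere, 37.4% mitochondrial counts against 0.5003 to 2.11%, a CD8 marker sum of 804 CPM and a melanocyte marker sum of 9326 CPM. Between the untreated T cell libraries, chi-square per degree of freedom was 393, against 3.73 to 23.2 for pairs of B16F10 libraries of 1 group.

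**Figure D1:**
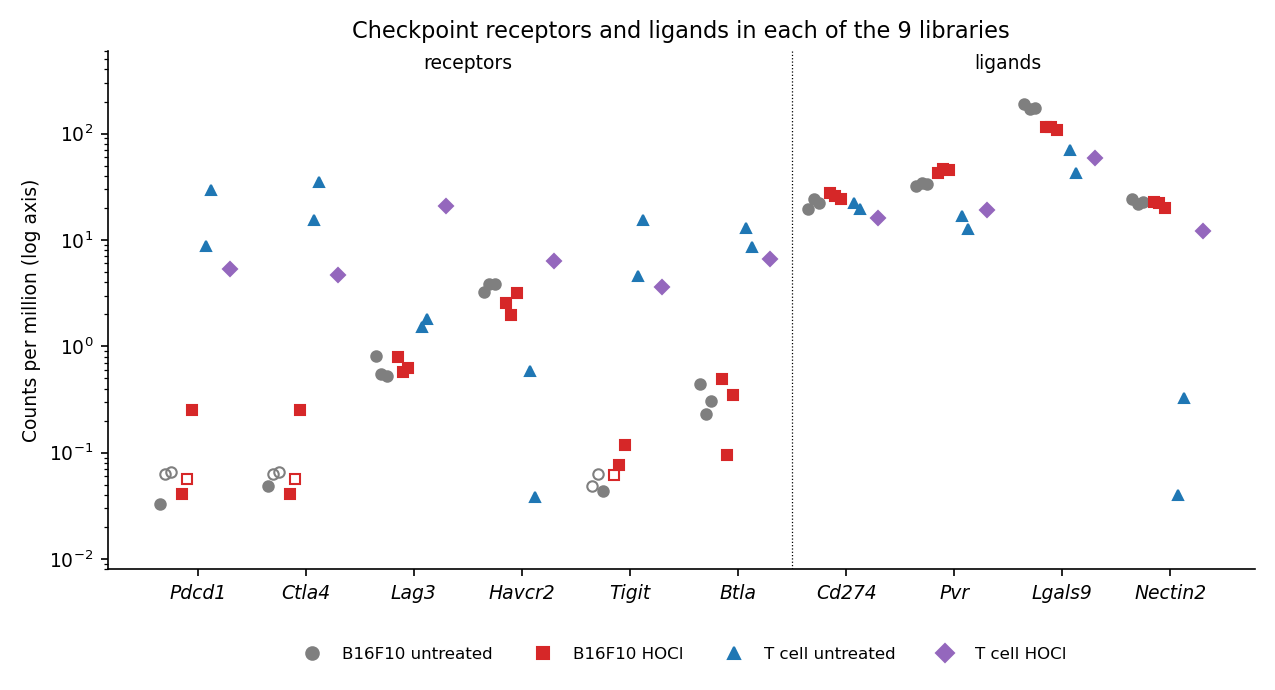
CPM (log axis) of each of the 10 genes in each of the 9 libraries, 1 symbol per library, coloured by group. Open symbols mark libraries with 0 counts, drawn at the level of 3 counts. Pdcd1, Ctla4, Tigit and Btla lay above 3 CPM in all 3 T cell libraries and at 0.49 CPM or less in all 6 B16F10 libraries, while Nectin2 was near 0 in untreated T cells.

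In untreated B16F10 all 4 ligand genes were transcribed. Lgals9, on chromosome 11 (78962974 to 78984946, minus strand, GRCm38; ENSMUSG00000001123), stood far above the rest at 83.2 ± 4.54 CPM per kb of merged exons (SD, n = 3), above 97.7% of 21998 protein-coding genes. Nectin2 (chromosome 7, 19716644 to 19750483) was at 6.61 ± 0.379, Cd274 (chromosome 19, 29367455 to 29388095) at 6.07 ± 0.623 and Pvr (chromosome 7, 19903578 to 19921160) at 5.46 ± 0.168 CPM per kb. Those neighbours in the order lay within 1 SD or little more of each other, and the order rests on the length used. With the longest annotated transcript in place of merged exons, Pvr came to 11.5, Nectin2 to 8.44 and Lgals9 to 112 CPM per kb, and the ratio of Cd274 to Pvr went from 1.11 to 0.528. Exons of Cd274 and Nectin2 share bases with an antisense gene each (AC119228.1 and Gm20512). The strand setting of the counting is not given in the sources used here, so those reads cannot be told apart.

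The receptor genes were low in B16F10, with TIM-3's gene as the highest. Havcr2 (chromosome 11, 46454935 to 46481255) was at 1.34 ± 0.127 and Lag3 (chromosome 6, 124904361 to 124911705) at 0.298 ± 0.0770 CPM per kb, and Btla (chromosome 16, 45224315 to 45257670) at 0.0958 ± 0.0312. Pdcd1 (chromosome 1, 94038305 to 94052553), Ctla4 (chromosome 1, 60887000 to 60915832) and Tigit (chromosome 16, 43648867 to 43664146) had 2, 3 and 2 counts over the 3 untreated libraries together. A count of 0 in one of these libraries allows up to 0.0489 to 0.0654 CPM, the level of 3 counts, which covers counting error only.

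HOCl lowered Lgals9 and raised Pvr in B16F10, and left no called change in Cd274 or Nectin2. The comparison was of 3 HOCl with 3 untreated libraries in the edgeR quasi-likelihood fit, with p adjusted by Benjamini-Hochberg over all 16082 genes tested and a threshold of 0.05. Of the 10 members, 7 passed the filter on low counts, since Pdcd1, Ctla4 and Tigit were too low to be tested. Of the 7 tested, 1 was called higher, beside 14.7% of all genes tested, and 2 were called lower, beside 13.5%. In either direction 28.3% of all genes were called. With 7 members tested, their share is too coarse to set apart from that background.

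Lgals9 was at 188.7, 170.4 and 174.0 CPM in the untreated libraries and at 114.9, 115.9 and 107.1 CPM with HOCl. The 3 treated libraries were all below the lowest untreated one. Galectin-9 is a secreted sugar-binding lectin, and its transcript fell by 0.69 ± 0.06 on the log2 scale (SE), 1.61-fold, with an adjusted p of 8.28e-06 in edgeR. Per length Lgals9 was at 52.7 ± 2.27 CPM per kb with HOCl, the highest of the 4 ligands with and without the oxidant.

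Pvr was at 32.3, 34.2 and 33.7 CPM in the untreated libraries and at 43.0, 46.2 and 45.0 CPM with HOCl. The groups did not overlap, and each was tight. CD155, which Pvr encodes, is an adhesion protein that engages TIGIT, CD96 and CD226, and its transcript rose by 0.39 ± 0.06 on the log2 scale, 1.31-fold, with an adjusted p of 0.00041 in edgeR. Both calls were lost where T cell libraries shared the fit: with all 9 libraries the adjusted p was 0.176 for Lgals9 and 0.409 for Pvr, and with 8, leaving out the T cell HOCl library, 0.119 and 0.172, at log2 changes of -0.69 and 0.39 in each.

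Cd274 was at 19.7, 24.2 and 22.1 CPM untreated and at 27.6, 25.8 and 24.1 CPM with HOCl. The groups overlapped, since untreated replicate 2 lay above HOCl replicate 3. The log2 difference was 0.21 ± 0.08, with a 95% interval of 0.02 to 0.39 and an adjusted p of 0.0862 in edgeR, which misses the threshold. It passed in 3 alternatives: without untreated replicate 2 (log2 0.28, adjusted p = 0.0350), with no filter on low counts (0.0457) and with the replicate number as a block (0.0434). In the other 11 it did not pass. Among these, without untreated replicate 1, the lowest Cd274 library, the log2 difference was 0.14 with an adjusted p of 0.152 in edgeR. Over all 14 alternatives its adjusted p ran from 0.0350 to 0.798 and its log2 difference from 0.14 to 0.28, higher with HOCl in each.

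Nectin2, whose product CD112 is an adhesion protein of the same family as CD155, was at 24.5, 21.9 and 22.9 CPM untreated and at 22.7, 22.3 and 19.9 CPM with HOCl. The groups overlapped. The log2 difference was -0.12, with a 95% interval of -0.29 to 0.04 and an adjusted p of 0.258 in edgeR. A fall of up to 0.29 on the log2 scale lies within that interval.

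**Figure D2:**
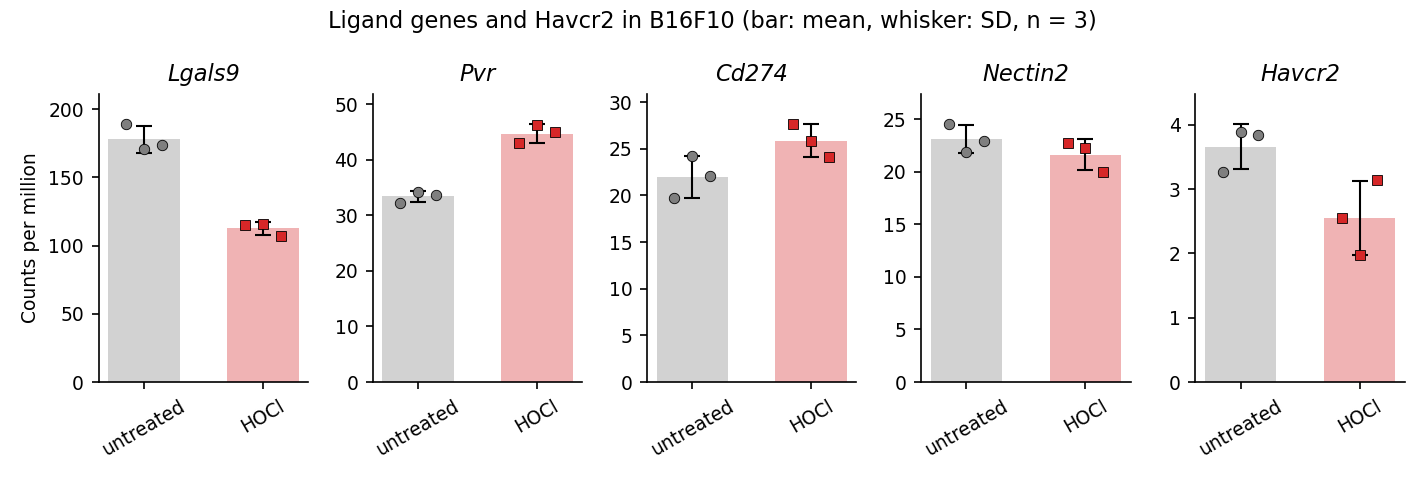
CPM of the 4 ligand genes and Havcr2 in untreated and HOCl-treated B16F10; points are libraries, bars the mean and whiskers the SD (n = 3), each panel on its own axis from 0. Lgals9 went from 177.7 to 112.6 CPM and Pvr from 33.4 to 44.7 CPM with no overlap between groups, while the Cd274 and Nectin2 groups overlapped.

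Among the receptor genes in B16F10, Havcr2 was called and Lag3 and Btla were not. Havcr2 was at 3.26, 3.88 and 3.83 CPM untreated and at 2.55, 1.98 and 3.14 CPM with HOCl, so the highest treated library lay just under the lowest untreated one. It fell by 0.54 ± 0.18 on the log2 scale, with an adjusted p of 0.0432 in edgeR. The call was lost without TMM scaling (0.0556), without untreated replicate 2 (0.113) or 3 (0.118) and without HOCl replicate 1 (0.106) or 2 (0.161), and in the last of these it fell by 0.39 on the log2 scale, lower in each. Lag3 was at 0.82, 0.55 and 0.52 CPM untreated and at 0.80, 0.57 and 0.62 CPM with HOCl (log2 difference 0.04, adjusted p = 0.944 in edgeR). Btla was at 0.44, 0.23 and 0.31 CPM untreated and at 0.49, 0.10 and 0.35 CPM with HOCl (log2 difference -0.11, adjusted p = 0.90 in edgeR). With 95% intervals of -0.66 to 0.73 for Lag3 and -1.28 to 1.05 for Btla, even a 1.5-fold change in either direction lies within the error at this depth.

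Pdcd1 and Ctla4 each had 13 counts, 0.25 CPM, in HOCl replicate 3 and 0 to 3 counts in each of the other 5 B16F10 libraries. That library held the CD8 T cell markers described above, Cd8a at 3.04 CPM and Cd3e at 1.5 CPM among them, and their part in these counts was not tested. Without it, 3 members were still called.

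In the authors' deposited table for B16F10 the log2 fold change was -0.66 for Lgals9 (adjusted p 1.78e-25), 0.38 for Pvr (6.78e-07), -0.40 for Havcr2 (0.0438) and 0.20 for Cd274 (0.0895). That table does not name its groups by treatment, so its signs are as deposited.

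The genes of the interferon route to PD-L1 changed in both directions in B16F10. Of its 20 tested members 3 rose and 7 fell, with a median log2 change of 0.01 beside -0.01 over all genes tested. Over all genes 14.7% were called higher and 13.5% lower, the share to set beside this list and those that follow in B16F10. Socs1, a feedback inhibitor of JAK signalling, fell by 0.84 ± 0.18 on the log2 scale (adjusted p = 0.00441 in edgeR), from 2.59 ± 0.200 to 1.47 ± 0.0755 CPM (n = 3 each). Irf9 fell by 0.35, Irf1 by 0.33 and Myc by 0.33, and Stat3 and Nfkb1 by 0.15 each. Among those that rose were the receptor chain Ifnar1 at 0.24 ± 0.05 (adjusted p = 0.00664 in edgeR) and the kinase Jak1 at 0.21 ± 0.06 (0.0174), with Rela at 0.16. Jak1 lost its call without HOCl replicate 2 (0.0723) or 3 (0.0814). The counts came to 3 up and 5 down without TMM, and to 1 to 3 up and 5 to 7 down with each library left out; without HOCl replicate 3 they were 1 and 5. With T cell libraries in the fit they were 0 and 1.

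**Figure D3:**
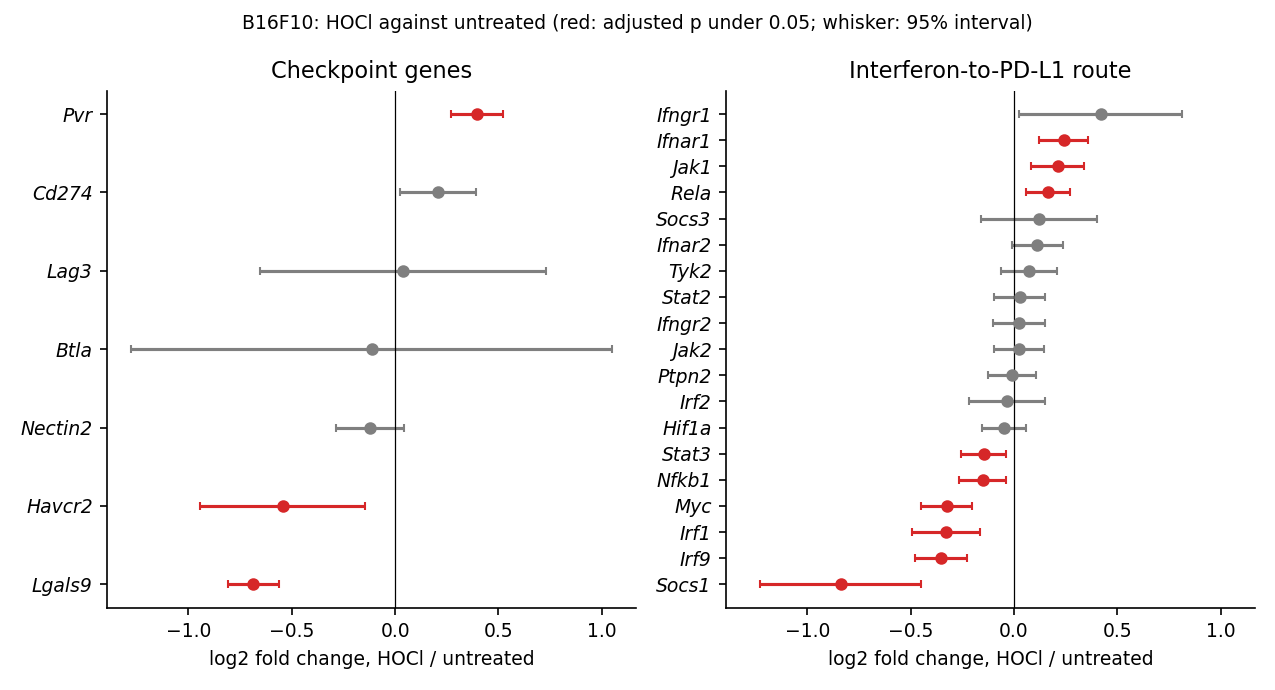
Log2 fold change of HOCl against untreated B16F10 with its 95% interval, for the 7 tested checkpoint genes (left) and 19 of the 20 genes of the interferon-to-PD-L1 route (right); red marks an adjusted p under 0.05. Lgals9 at -0.69 and Socs1 at -0.84 have the largest called falls of those drawn in their panels, and the Cd274 interval, 0.02 to 0.39, lies above 0 without passing the adjusted threshold.

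Of 14 tested genes whose proteins act on PD-L1 after it is made, 3 rose and 2 fell (median 0.04). Cmtm4, whose product shields PD-L1 from breakdown, rose by 0.34 ± 0.06 on the log2 scale, from 86.0 ± 5.36 to 111.0 ± 3.64 CPM (n = 3 each; adjusted p = 0.000869 in edgeR). Adam17, a protease that can shed PD-L1, was at 0.18 ± 0.05 (0.0210), Zdhhc3, a palmitoyltransferase, at -0.20 ± 0.05 (0.0126) and Stub1, a ubiquitin ligase, at -0.18 ± 0.06 (0.0262). Each of these 3 calls was lost when single libraries were left out: Adam17 without HOCl replicate 1 (0.0700), 2 (0.0925) or 3 (0.0682), Zdhhc3 without untreated replicate 3 (0.0514) or HOCl replicate 3 (0.0797), and Stub1 without untreated replicate 3 (0.0867), HOCl replicate 1 (0.117), 2 (0.0550) or 3 (0.0951) and without TMM (0.0501). Without any 1 of the HOCl libraries the list gave 1 rise and 1 fall, and without untreated replicate 3 it gave 3 rises and 0 falls.

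Of the other checkpoint ligands 15 of 23 were tested, and 1 rose and 2 fell (median -0.04). The counts were 2 and 2 with no filter, with the replicate number as a block and without HOCl replicate 1 or 2. With T cell libraries in the fit they were 0 and 0. Lgals3 (galectin-3, a ligand of LAG-3) rose by 0.25 ± 0.06 on the log2 scale, from 163.3 ± 10.9 to 198.5 ± 9.57 CPM (n = 3 each; adjusted p = 0.00707 in edgeR). Cd276 (B7-H3, a B7 family member) fell by 0.34 ± 0.07 (0.00532), and Hmgb1, a nuclear protein that also binds TIM-3, by 0.24 ± 0.04 (0.00166). The CTLA-4 ligands were near 0 in B16F10: Cd86 was at 0 in all 3 untreated libraries and at no more than 0.06 CPM with HOCl, and Cd80 was at 0.30 to 0.74 CPM over the 6 libraries. The second PD-1 ligand, Pdcd1lg2, was at no more than 0.04 CPM in any B16F10 library.

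Signalling partners of the receptor tails, of which 13 of 14 were tested, gave 2 rises and 2 falls (median 0.06). Ptpn6, the gene of the phosphatase SHP-1, fell by 0.56 ± 0.07 on the log2 scale, from 27.1 ± 1.5 to 18.7 ± 0.531 CPM (n = 3 each; adjusted p = 0.000131 in edgeR). Fyn, a Src family kinase, rose by 0.29 ± 0.05 (0.00203). Cblb, a ubiquitin ligase, was at 0.39 ± 0.11 (0.0199) and lost its call without HOCl replicate 3 (0.105). Csk, an inhibitory kinase, was at -0.19 ± 0.05 (0.0118) and lost it without untreated replicate 3 (0.0679) or HOCl replicate 1 (0.0583) or 2 (0.0563).

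Genes linked to T cell exhaustion and activation, 14 of 21 of them tested in the melanoma cells, gave 4 rises and 2 falls (median 0.21). The low Irf4, a factor of lymphocytes and pigment cells, rose by 1.72 ± 0.35 on the log2 scale, from 0.279 ± 0.0907 to 0.938 ± 0.153 CPM (n = 3 each; adjusted p = 0.00327 in edgeR). Nfatc1, a calcium-regulated factor, rose by 0.69 ± 0.09 (0.000207). The inhibitors of helix-loop-helix factors Id3 and Id2 fell by 1.41 ± 0.16 (0.00035) and 1.05 ± 0.07 (2.65e-06). Of the other inhibitory receptors (4 tested of 13), the costimulatory receptors (6 of 12) and the activation and effector genes (3 of 14) none was called by edgeR; at an unadjusted p under 0.05 stood 1, 0 and 2 of them, and DESeq2 called 0, 0 and 2. Among the alternatives, 1 of the other inhibitory receptors was called higher with no filter, with the replicate number as a block and without HOCl replicate 1 or 2. Of the activation and effector genes 2 were called lower with no filter, with the block and without untreated replicate 1, and 1 with a mean of at least 1 CPM. Among markers, 1 of 8 tested CD8 T cell genes was called: Themis, a T cell adaptor, at 1.86 ± 0.48 (0.0127), lost without HOCl replicate 3 (0.0962); without HOCl replicate 2 edgeR called 4 of the 8 higher. Of the regulatory and CD4 T cell markers 1 of 4 tested was called: Zbtb7b at 0.22 ± 0.06 (0.0204), lost without untreated replicate 2 (0.0667) and HOCl replicate 1 (0.0959) or 2 (0.0718). Of 12 melanocyte markers 1 rose and 4 fell, with 1 fall without HOCl replicate 2 or 3 and 7 falls without untreated replicate 1. Sox10 rose by 0.28 ± 0.05 (0.00111) and Mc1r fell by 0.68 ± 0.05 (6.76e-06), while Tyr, at -0.25 ± 0.07 (0.0192), lost its call without untreated replicate 2 (0.0828), HOCl replicate 2 (0.102) or 3 (0.0845). None of the B cell, macrophage and dendritic or NK cell markers tested (3, 3 and 1) was called by edgeR or DESeq2, nor was any at an unadjusted p under 0.05; without untreated replicate 2 edgeR called 1 of the 3 macrophage and dendritic markers higher.

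The genes whose log2 CPM over the 6 B16F10 libraries ran most like each ligand were taken from 10391 genes of at least 5 CPM, with Pearson's r as a description that carries the treatment step and the shared libraries. For Lgals9 they were Ssbp4 (r = 0.999), Cops3 (0.999) and Mcm3 (0.999), for Pvr Plk2 (0.999), Ppm1b (0.998) and Kansl3 (0.998), for Cd274 Dmpk (0.998), Gpatch1 (0.994) and Kdm3a (0.990), and for Nectin2 Atpaf2 (0.996), Cd9 (0.995) and Ift22 (0.994). Ssbp4 went from 119.6 to 75.9 CPM, a log2 change of -0.68 beside -0.69 for Lgals9, and Plk2 from 17.3 to 24.4 CPM, 0.47 beside 0.39 for Pvr.

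Untreated T cells transcribed 4 of the 6 receptors at levels of several CPM or more. Per length, Tigit was at 10.9 ± 8.35, Ctla4 at 10.9 ± 5.93, Pdcd1 at 9.92 ± 7.58 and Btla at 3.2 ± 0.920 CPM per kb (SD, n = 2), while Lag3 was at 0.788 ± 0.108 and Havcr2 at 0.114 ± 0.141. The first 3 differ by less than their spread. In bulk RNA, fewer cells that express a gene and less RNA per cell cannot be told apart.

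Among the receptors above 3 CPM in T cells, 3 differed widely between the 2 untreated libraries. Pdcd1 was at 8.81 and 29.5 CPM in replicates 1 and 2, a ratio of 3.35, and of 9501 genes of at least 5 CPM 0.610% had a ratio as high or higher. Tigit was at 4.63 and 15.5 CPM, a ratio of 3.34 (0.632%), and Ctla4 at 15.5 and 35.1 CPM, a ratio of 2.26 (2.92%). Btla went the other way, from 13.1 to 8.66 CPM, a ratio of 0.662, below the median over all those genes of 0.881. Beside this, Foxp3, which marks regulatory T cells, was at 1.6 and 0.38 CPM, Il2ra at 2.30 and 2.44 CPM, the CD8 markers summed to 6563 and 7174 CPM and the B cell markers to 1274 and 2373 CPM. Of the 14 activation and effector genes 6 were higher in replicate 2, among them Gzmb, a granule protease, at 4.09 and 11.6 CPM, while Cd44, an adhesion receptor, was at 69.5 and 45.5 CPM; both were named after their values were seen. Of the 12 costimulatory receptors 7 were higher in replicate 2. The part of these genes and markers in the receptor ratios was not tested. Lag3 was at 1.5 and 1.82 CPM, and Havcr2 (0.58 and 0.04 CPM) rested on 29 and 2 counts.

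Set against untreated B16F10, untreated T cells had higher levels of 5 receptors and lower levels of Havcr2 and 3 ligands. The test was edgeR's quasi-likelihood test over 18352 genes, of which 71.1% were called, 35.4% higher and 35.8% lower in T cells. All 10 members were tested, and 5 were called higher and 4 lower. Pdcd1, Ctla4 and Tigit could pass the filter only through the T cell libraries, and Nectin2 only through B16F10. Their directions were thus largely fixed beforehand, and their calls are a description. That 9 of 10 were called stands beside a background of 71.1%. Without TMM scaling the median over all genes moved from 0.02 to -0.22 on the log2 scale, and directions of small changes are relative to that.

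For the 3 receptors nearly absent from B16F10 a ratio of pooled counts is given in place of a fitted fold. Counts were summed over the libraries of each group and divided by their summed totals. The exact 95% interval covers counting error and not the spread between libraries. It was 1500 (415 to 12393) for Pdcd1, 1316 (450 to 6386) for Ctla4 and 787 (217 to 6508) for Tigit, and rested on 2 or 3 B16F10 counts. No p is given for these 3, whose direction was largely fixed by the filter. Btla was higher in T cells by 5.27 ± 0.38 on the log2 scale (adjusted p = 9.09e-05), with 8.66 CPM or more in each untreated T cell library and 0.44 CPM or less in each untreated B16F10 library. Lag3 was higher by 1.65 ± 0.39 (0.01), a difference lost with the replicate number as a block (0.151) and without B16F10 untreated replicate 2 (0.0503) or 3 (0.0507). Havcr2 was lower in T cells by 3.35 ± 0.88 on the log2 scale, and so stood higher in the melanoma line than in the lymphocytes (adjusted p = 0.0155 in edgeR; 0.0514 without B16F10 untreated replicate 1). The log2 difference was -6.21 without T cell untreated replicate 1 and -2.51 without replicate 2.

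The ligand genes were not confined to the tumour line. Lgals9 was at 70.6 and 42.3 CPM in T cells, log2 -1.42 ± 0.22 against B16F10 (adjusted p = 0.00191 in edgeR), and with 26.4 ± 9.38 CPM per kb (n = 2) it stood above 92.3% of protein-coding genes there. Pvr was at 16.9 and 12.6 CPM, log2 -0.94 ± 0.17 (0.0036), lost under the replicate block (0.0711). Nectin2 was at 0.04 and 0.33 CPM, on 2 and 17 counts, log2 -6.68 ± 0.69, and -5.85 and -8.96 without T cell untreated replicate 1 and 2. Cd274 was at 22.4 and 19.7 CPM in T cells, with a log2 difference of 0.18, a 95% interval of -0.23 to 0.60 and an adjusted p of 0.371 in edgeR; without TMM it was -0.06.

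The lists around the members were counted in the same test, where 35.4% of all genes were higher and 35.8% lower in T cells. A gene near 0 in B16F10 could pass the filter only through the T cell libraries. Its direction was thus largely fixed beforehand, and the counts of such lists are a description. Of 12 tested other inhibitory receptors 10 were higher in T cells (median log2 difference 6.53 beside 0.02 over all genes). Vsir (VISTA, a B7-related inhibitory protein that the lists hold as both receptor and ligand) was at 261.8 ± 107 CPM (n = 2) against 0.120 ± 0.0798 (n = 3), and Klrc1, which encodes the NKG2A chain, at 31.9 ± 8.93 against 0.0249 ± 0.0220 CPM. Of 12 costimulatory receptors 11 were higher. Cd226, the activating counterpart of TIGIT, was at 71.9 ± 3.37 against 0.0308 ± 0.0268 CPM, and Cd2, an adhesion receptor, at 192.4 ± 39.0 against 0.0855 ± 0.0740 CPM. Of 19 tested other ligands 10 were higher and 6 lower in T cells. Cd86 was at 3.03 ± 1.16 CPM in T cells and at 0 in B16F10, while Cd276 was at 0.0492 ± 0.0153 CPM in T cells against 15.9 ± 0.209 in B16F10, and the LAG-3 ligand gene Fgl1 at 0 in T cells against 0.974 ± 0.249 CPM.

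Of the receptor tail partners 9 of 14 were higher in T cells and 2 lower. Lck, the kinase that starts T cell receptor signalling, was at 632.2 ± 109 CPM against 3.80 ± 0.485, and the adaptor Sh2d1a at 71.3 ± 40.0 against 0.0394 ± 0.00593 CPM. Ptpn11 (SHP-2) was lower by 0.89 ± 0.17 on the log2 scale (adjusted p = 0.00387; 0.0549 under the replicate block) and Ap2m1, a clathrin adaptor that takes up CTLA-4, by 0.87 ± 0.18 (0.00658; 0.0551 under the block). Of the exhaustion and activation genes 13 of 20 were higher and 3 lower. Tox was at 42.6 ± 11.1 against 0.0285 ± 0.0247 CPM and Cxcr5 at 20.8 ± 2.66 against 0.0378 ± 0.0148, while Id3 was at 13.1 ± 3.16 against 69.3 ± 3.82 CPM. Of the interferon route 14 of 20 were higher and 2 lower. Ifngr1, the ligand-binding interferon gamma receptor chain, was higher by 6.30 ± 0.32 and Socs1 by 4.58 ± 0.18 on the log2 scale, and Myc was lower by 0.98 ± 0.15 (adjusted p 2.67e-05, 1.22e-05 and 0.00166 in edgeR). Of the PD-L1 partners 4 of 14 were higher and 3 lower (6 and 7 without T cell untreated replicate 1, and 1 lower under the block or without any 1 B16F10 library), with B4galt1, a galactosyltransferase, higher by 2.87 ± 0.15 and Cmtm4 lower by 1.55 ± 0.39 (2.38e-05 and 0.0129). Of the activation and effector genes 11 of 13 were higher and 2 lower: Nkg7, a granule protein, was at 36.1 ± 0.939 against 0.0140 ± 0.0242 CPM, and the cycling marker Mki67 at 16.1 ± 2.91 against 374.7 ± 51.2 CPM.

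Markers of other spleen cells were also higher in the T cell libraries than in B16F10. Called higher were 11 of 12 B cell, 7 of 7 tested NK cell and 6 of 8 tested macrophage and dendritic genes. Over all genes the share was 35.4%. The NK cell list held 8 genes and the macrophage and dendritic list 14, and the rest did not pass the filter. Ighm was at 1787 ± 771 CPM (n = 2) and the NK receptor gene Klre1 at 17.4 ± 0.630 CPM, while Lyz2 was at 5.69 and 6.16 CPM. Of 7 regulatory and CD4 T cell markers 3 were higher and 3 lower, Il2ra at 2.37 ± 0.0956 against 0.0070 ± 0.0121 CPM among the first and Nrp1 at 3.31 ± 2.26 against 49.9 ± 7.2 CPM among the second. Of the CD8 markers 15 of 15 were higher in T cells, and of the melanocyte markers 12 of 12 lower. Which cells of the preparation held the receptor and ligand RNA was not tested.

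The T cell HOCl library is described by its values alone, since it is 1 library and stands apart. The receptors abundant in untreated T cells were lower in it. Ctla4 was at 4.67 CPM (exact Poisson 95% interval 3.56 to 6.01, counting error only) against 15.5 and 35.1 CPM untreated, 0.185 of their mean. Pdcd1 was at 5.37 CPM (4.18 to 6.80) against 8.81 and 29.5, 0.280 of the mean, and Tigit at 3.58 CPM (2.62 to 4.78) against 4.63 and 15.5, 0.356 of it. Btla was at 6.62 CPM (5.28 to 8.18) against 13.1 and 8.66, 0.609 of the mean. All 4 lay below both untreated libraries, as did 59.2% of the 9501 genes of at least 5 CPM in untreated T cells. The Tigit interval reached past the lower untreated value.

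Genes outside the members that were abundant in untreated T cells were mostly low in this library as well. The CD8 markers were all below both untreated libraries, 15 of 15, at a median of 0.137 of the untreated mean (range 0.0454 to 0.233), Cd8a at 69.2 CPM against 452.3 and 359.1. The 4 other inhibitory receptors of at least 5 CPM had a median of 0.151 and the 10 costimulatory receptors one of 0.200. All lay below both untreated libraries, and the median over all 9501 genes was 0.655. The 15 exhaustion and activation factors of that level had a median of 0.566, with 12 below both and 2 above. The 8 activation and effector genes had one of 0.416, with 6 below and 2 above. Those above were Id2 and Id3 in the first list and Cd44 and Mki67 in the second. Cd44 was at 163.5 CPM here and at 495.3 to 545.7 CPM in untreated B16F10, Mki67 at 107.1 and 316.4 to 412.2 CPM. Id2 was at 50.4 and 141.0 to 145.9 CPM, Id3 at 29.2 and 65.3 to 72.9 CPM. The part of melanoma transcripts in these values was not tested. The cut at 5 CPM picks genes that are high in the untreated libraries. Of those under 5 CPM in both, 8 of 9 other inhibitory and 2 of 2 costimulatory receptors were above both. With mitochondrially encoded genes left out of the totals, Ctla4 stood at 7.46 and Pdcd1 at 8.58 CPM, still below the untreated 15.8 and 35.8 and, narrowly, 8.95 and 30.1 CPM. Tigit (5.72 CPM) and Btla (10.6 CPM) then lay between the untreated libraries, so that 2 and not 4 of the receptors stayed below both.

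Lag3 and Havcr2, low in untreated T cells, were higher in this library. Lag3 was at 21.02 CPM (18.6 to 23.7) against 1.5 and 1.82, 12.6 times the untreated mean, and Havcr2 at 6.38 CPM (5.08 to 7.92) against 0.58 and 0.04. Both also exceeded every B16F10 library, where Lag3 reached 0.82 and Havcr2 3.88 CPM. Most genes that were low in untreated T cells were likewise higher: of 36023 genes under 5 CPM in untreated T cells with a count in any T cell library, 91.7% were above both untreated libraries. Markers of other cells went both ways. Cd4 at 7.08 CPM and Lyz2 at 14.5 CPM were higher. So were the macrophage and dendritic marker sum, 95.6 CPM against 31.0 and 16.8, and the melanocyte marker sum, 9326 CPM. The B cell marker sum was lower, 496 CPM against 1274 and 2373, as was the NK cell marker sum, 53.6 against 66.2 and 55.4. Most of the B cell sum was Ighm, at 280 CPM against 1242 and 2332. Of the 4 B cell markers of at least 5 CPM in untreated T cells, 1, Ighm, was below both untreated libraries and 3 above. All 8 under 5 CPM were above both. Of the NK cell markers, the 2 of at least 5 CPM were below both and the 6 under 5 CPM above both. The part of all these markers in the Lag3 and Havcr2 values was not tested.

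The ligands in the T cell HOCl library stood at 33.4 to 72.9% of their untreated B16F10 level, with the melanocyte markers at a median of 27.2% of theirs (25.01 to 30.9%). Nectin2 was at 12.2 CPM (10.4 to 14.3) where untreated T cells had 0.04 and 0.33, and Pvr at 19.2 CPM (16.9 to 21.8) against 16.9 and 12.6. Both were above both untreated libraries, as were 24.0% of the 9501 genes of at least 5 CPM, a set to which Pvr but not Nectin2 belongs. Cd274 was at 16.03 CPM (13.9 to 18.4), below the untreated 22.4 and 19.7, and at 25.6 CPM without mitochondrial genes in the totals, above the 22.8 and 20.1 of the untreated libraries on that scale. Lgals9, at 59.3 CPM (55.2 to 63.7), lay between the untreated values, and at 94.8 CPM above both on the other scale. The part of the melanocyte transcripts in these ligand values was not tested.

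**Figure D4:**
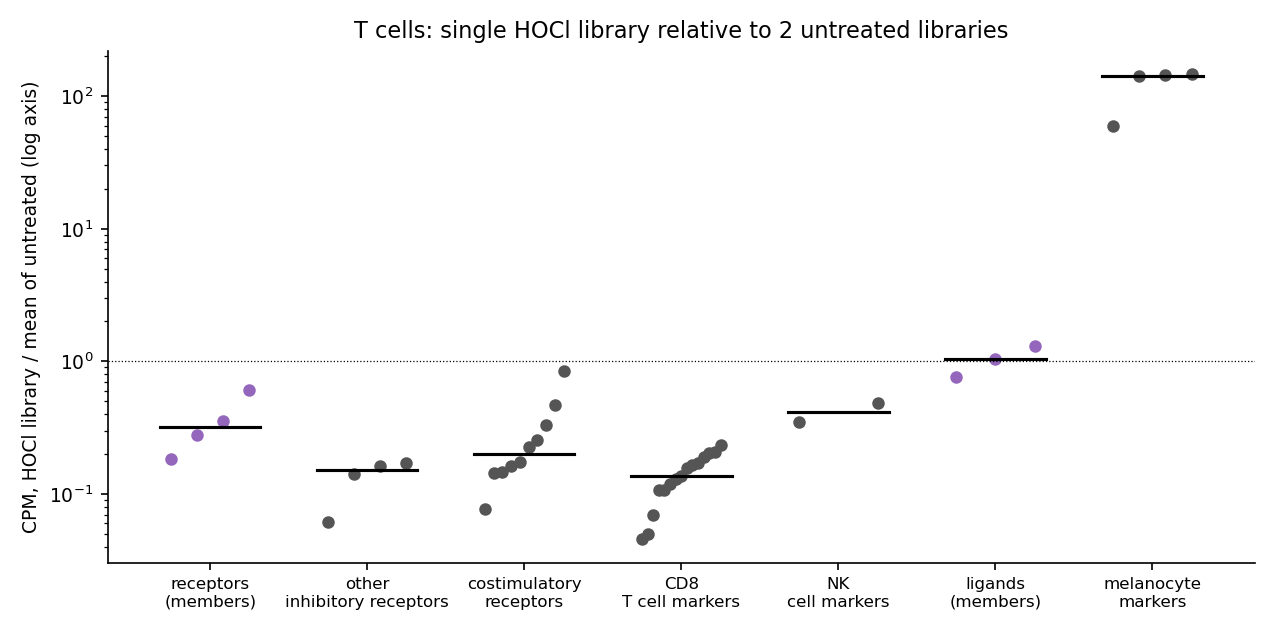
Ratio of the CPM in the T cell HOCl library to the mean of the 2 untreated T cell libraries (log axis), 1 point per gene of at least 5 CPM in untreated T cells, with the median of each list as a bar. The 4 receptors lie at 0.185 to 0.609 and the CD8 markers at 0.0454 to 0.233, while the 4 melanocyte markers shown lie at 59.1 or more.

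In the authors' deposited table for T cells the log2 fold change was -3.23 for Ctla4 (adjusted p 0.000507), -2.65 for Pdcd1 (0.0117), -2.29 for Tigit (0.0529), 2.73 for Lag3 (0.0182) and 4.78 for Nectin2 (0.0043), and the other 5 members were above 0.1. It is taken to rest on the same 3 T cell libraries and, like the B16F10 table, does not name its groups by treatment.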

How the data were processed

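RNA was measured by sequencing in 9 mouse libraries. The authors deposited raw read counts per gene for each library and, for each cell type, a table with log2 fold changes and adjusted p-values of their own. The submitters' processing notes list, with no order, build mm10 and the tools STAR 2.7.1a, DESeq2 1.22.2, featureCounts 1.6.0 and FastQC 0.11.8. For the annotation, strand setting and filters, nothing is given in the sources used here. Of 54838 gene IDs, 54809 were found in GENCODE M21 (GRCm38), which gave positions and exon lengths.

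Groups came from the sample titles. CPM is counts per M gene counts of the library, and CPM per kb divides by merged exon length. Each comparison was fitted on the whole table with edgeR 4.0.16 in R 4.3.3 (filterByExpr, TMM, robust quasi-likelihood F test, Benjamini-Hochberg, threshold 0.05), a script tested on simulated data. SE is the log2 fold change over the square root of F. Poisson and binomial intervals are exact, at 95%, and cover counting error only, as PCR reads are not independent molecules. Alternatives were DESeq2 1.42.0, other scalings and filters, joint fits, a replicate block and leaving out each library.

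Named genes were all members, up to 2 per direction of each list with the largest called change and no overlap, and 3 genes most like each ligand; genes given outside that rule were picked after their values were seen. Pseudogenes and model or clone names were not used. Values of 2 list genes are not reported here; the counts and sums of their lists include them. The members and lists were chosen with earlier results of these data known.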

Additional observations from a re-analysis of the deposited data

Results flagged for a closer look

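Lag3, Havcr2, Nectin2 and Pvr were picked out because the single T cell HOCl library, described here by its values alone, held more of them than either untreated T cell library: 21.02 CPM of Lag3, 6.38 CPM of Havcr2, 12.2 CPM of Nectin2 and 19.2 CPM of Pvr. Havcr2 was also picked out because it went opposite ways with HOCl in the 2 cell types, at 0.698 of the untreated mean in B16F10 and 20.6 times the untreated mean in the T cell library, a difference that was not tested. The untreated T cell mean of Havcr2 rests on 31 counts. A rise in this library was common over all genes. Above both untreated libraries were 91.7% of genes under 5 CPM in untreated T cells with a count in any T cell library. Of genes of at least 5 CPM, as Pvr is, 24.0% were. The library also held melanocyte markers at a median of 27.2% of their untreated B16F10 level and 37.4% mitochondrial counts. No group had the 4 libraries that a check for single outlying samples needs.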

How the results depend on the processing

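In B16F10 the direction of Lgals9, Pvr, Havcr2, Cd274 and Nectin2 was the same in all 14 alternatives. When T cell libraries joined the fit, no member was called: edgeR called 11 genes higher and 26 lower with all 9 libraries, and 29 and 38 with 8, while 0 members were called in both (2 in each at an unadjusted p under 0.05); at that spread Lgals9 had an adjusted p of 0.176 and 0.119. The cause was not tested. With each library left out, the genes called ran from 1605 to 2819 higher and from 1410 to 2634 lower (1432 without HOCl replicate 2, 1410 without HOCl replicate 3) and the members called from 2 to 3. Lag3 turned to -0.05, -0.07 and -0.11 without untreated replicate 2, untreated replicate 3 and HOCl replicate 1 (range -0.11 to 0.29), and Btla to 0.19 and 0.32 without untreated replicate 1 and HOCl replicate 2 (range -0.59 to 0.32). Cd274 in T cells against B16F10 turned to -0.0623 without TMM.

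Correlations of same-numbered libraries were 0.035, -0.0035 and 0.0015 in B16F10, and -0.139 and -0.130 for T cells with B16F10. Values were centred within each group, so the 2 T cell libraries mirror each other. With so few libraries these correlations cannot decide whether a shared number marks a shared culture or day, and the labels do not say. With the replicate number as a block, 4 members were called in B16F10, where Cd274 joined at 0.21, and 7 between the cell types. Leaving mitochondrial genes out of the totals moved the receptors below both untreated T cell libraries from 4 to 2. The longest transcript moved the Cd274 to Pvr ratio from 1.11 to 0.528. Depth limits Lag3, Btla, Pdcd1, Ctla4 and Tigit in B16F10 and low genes in the T cell HOCl library.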
